A study of Mus musculus with 12 samples.

Results

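The granule genes of neutrophils, Elane, Mpo, Prtn3, Ctsg, Ltf, Camp, Ngp, Mmp8 and Mmp9, and the chitinase-like gene Chil3 were followed through the myeloid cells of the neonatal mouse liver. They were matched by gene symbol, and all 10 were found among the 32285 genes of the count tables. Over all kept cells they ranged from 4894 UMIs (unique molecular identifiers, 1 for each captured RNA molecule) for Ctsg to 608573 UMIs for Ngp. The livers came from C57BL6/J pups at postnatal day 11, 6 naive controls and 6 with phlebotomy-induced anemia (PIA), and each liver gave 1 single-cell 3′ library. Anemic pups lost 20 µL of blood per g of body weight through the facial vein on days 2, 4, 6, 8 and 10, which took the hematocrit from 45 to 60% down to 20 to 24%. Controls had a daily needle stick without bleeding. Neither group carried a genetic change or received a drug. The members of each litter were divided between the groups, but which pups were littermates is not given in the sources used here. Whole liver was dissociated, so cells of the circulation and cells of the tissue cannot be told apart.

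Neutrophils fill their granules in order as they mature at sites of blood formation, which at this age include the liver. Primary (azurophilic) granules take up serine proteases and myeloperoxidase in promyelocytes. Secondary (specific) granules take up lactoferrin and cathelicidin in myelocytes and metamyelocytes, and tertiary (gelatinase) granules follow with matrix metalloproteinases. Monocytes arise from a neighbouring progenitor and share some of the primary granule proteins. Chil3, also called Ym1, is a secreted chitinase-like protein that is made by neutrophil precursors and by some macrophages and monocytes. It was included with its higher level in anemic monocytes already known.

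Several of these genes lie close together in the genome (GRCm38, GENCODE M21). Prtn3 (chromosome 10, 79874476 to 79883174) and Elane (79886247 to 79888215) are neighbours on the plus strand with 3072 bases between them. Camp (109847379 to 109849617), Ngp (110419747 to 110423012) and Ltf (111019271 to 111042767) follow each other on chromosome 9, with 570129 bases between Camp and Ngp and 596258 between Ngp and Ltf. Mmp8 is on chromosome 9 at 7558456 to 7568485 and Mmp9 on chromosome 2 at 164940780 to 164955850. Mpo is on chromosome 11 at 87793581 to 87804413 and Ctsg on chromosome 14 at 56099881 to 56102574. Chil3 lies on the minus strand of chromosome 3 at 106147554 to 106167564. Its close paralog Chil4 (106201490 to 106219507) had 34 UMIs over all classes of cells. How reads that fit both were assigned is not given in the sources used here.

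Promoters of 9 of the 10 genes were found in the RefSeq table (GRCm38.p6), each running from 250 bases before the transcription start to 50 after it. Printed here, 5′ to 3′ on the strand of the gene, are those of Elane and Ltf, which stand for primary and secondary granules, and those of Chil3 and Mmp8, the genes that differed between groups in monocytes. Capitals mark TTNNGNAA, a core of C/EBP sites, and GAGGAA, a core of PU.1 sites, on either strand, and ACGTG, a core of HIF sites, was searched in the same way.
Elane, chr10:79886062-79886361, plus strand: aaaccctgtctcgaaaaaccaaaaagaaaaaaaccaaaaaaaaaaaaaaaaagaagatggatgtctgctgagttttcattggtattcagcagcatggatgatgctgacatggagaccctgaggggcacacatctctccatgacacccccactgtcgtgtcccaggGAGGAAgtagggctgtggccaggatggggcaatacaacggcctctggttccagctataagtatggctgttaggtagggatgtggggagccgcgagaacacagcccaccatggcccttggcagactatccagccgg
Ltf, chr9:111019042-111019341, plus strand: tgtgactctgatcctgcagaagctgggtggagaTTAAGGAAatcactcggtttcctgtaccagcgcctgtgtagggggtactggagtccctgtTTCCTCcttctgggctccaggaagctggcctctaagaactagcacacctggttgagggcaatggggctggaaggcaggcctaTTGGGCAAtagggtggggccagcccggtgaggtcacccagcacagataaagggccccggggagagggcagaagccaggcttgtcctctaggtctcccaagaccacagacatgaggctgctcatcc
Chil3, chr3:106167515-106167814, minus strand: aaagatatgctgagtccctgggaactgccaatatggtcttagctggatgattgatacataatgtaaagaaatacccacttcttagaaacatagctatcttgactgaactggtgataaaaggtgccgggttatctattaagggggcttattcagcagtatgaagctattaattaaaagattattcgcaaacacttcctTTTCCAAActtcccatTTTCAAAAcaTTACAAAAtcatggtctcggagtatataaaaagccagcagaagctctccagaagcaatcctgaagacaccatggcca
Mmp8, chr9:7558179-7558478, plus strand: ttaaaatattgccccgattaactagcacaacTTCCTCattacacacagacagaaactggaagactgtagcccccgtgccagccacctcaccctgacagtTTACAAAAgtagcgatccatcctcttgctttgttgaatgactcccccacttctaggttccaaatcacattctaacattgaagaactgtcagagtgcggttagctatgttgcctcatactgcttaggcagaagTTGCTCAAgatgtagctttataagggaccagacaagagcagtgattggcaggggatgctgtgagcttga
GAGGAA was present in 6 of the 9 promoters, those of all 4 primary granule genes and of Ltf and Mmp8, and in 28.3% of 32851 promoters of the same length. TTNNGNAA was present in 4 of the 9, those of Ltf, Ngp, Chil3 and Mmp8, and in 40.7% of all promoters. Chil3 held 3 matches, which began 53, 37 and 27 bases before the start, and Mmp8 held 2, which began 151 and 19 bases before it. ACGTG was present in 1 of the 9, that of Ngp, and in 19.6% of all promoters. No matches of different cores overlapped in the promoters printed here, and a match describes letters and not a bound site.

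Myeloid cells were divided by a clustering from which the 10 genes had been left out, and classes were named by other markers. Named classes are called X-like where they rest on markers, and the ending is dropped in what follows. The lineage of neutrophils comprised 941 neutrophil progenitors, 2012 immature and 8357 mature neutrophils. The lineage of monocytes comprised 846 monocyte progenitors, 3353 classical and 2427 nonclassical monocytes. Immature neutrophils raised 9 of their 9 markers. Classical monocyte clusters raised 3 (1970 cells) and 4 (1383 cells) of 6 markers, and nonclassical ones 7 (1337 cells) and 6 (1090 cells) of 8. The neutrophil progenitor cluster best matched the immature neutrophil list, with 7 markers raised, and its top genes included Ms4a3 and Fcnb. It also raised 4 markers of myeloid progenitors. The monocyte progenitor cluster raised 3 classical monocyte markers, its best list, and 3 of myeloid progenitors. The libraries of anemic mice 2 and 3 stood apart from the rest. They supplied 96.6% and 92.1% of 2 mature neutrophil clusters (1907 and 1135 cells), 97.0% of a classical monocyte cluster (1383 cells) and 93.6% of a nonclassical one (1090 cells). Another 2478 cells, 98.0% of them from these mice, raised too few markers for a name and were kept out of the monocytes. The values that move most with these libraries are also given without them. Pairs of libraries shared 51 to 121 cell barcodes.

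Primary granule RNA was high in the progenitors of both lineages and low in the cells that follow. Levels are in CPM, the UMIs of a gene per 1000000 UMIs of a class in a mouse. Elane, neutrophil elastase, was at 3479 ± 868 CPM (SD, n = 12 mice) in neutrophil progenitors and at 1667 ± 529 CPM in monocyte progenitors. In immature neutrophils it was at 1.47 ± 2.26 CPM, with 8 UMIs in all, and in mature neutrophils at 1.24 ± 1.19 CPM. Prtn3, proteinase 3, had 2632 ± 828 CPM in neutrophil and 2469 ± 793 CPM in monocyte progenitors. Mpo, myeloperoxidase, had 1038 ± 335 and 990.1 ± 318 CPM in the same classes, and Ctsg, cathepsin G, 233 ± 83.2 and 268 ± 102 CPM. For Prtn3, Mpo and Ctsg the progenitor classes differed by less than the SD over mice. In classical monocytes Prtn3 was at 64.7 ± 28.5 CPM, against 23.7 ± 24.8 CPM in B-like and 2.26 ± 1.12 CPM in T-like cells of the same livers. Elane was at 16.2 ± 9.94 CPM in classical monocytes, at 13.3 ± 15.3 CPM in B-like cells, where it ranged from 0.518 to 48.5 CPM between mice, and at 0.880 ± 0.931 CPM in T-like cells.

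**Figure D1:**
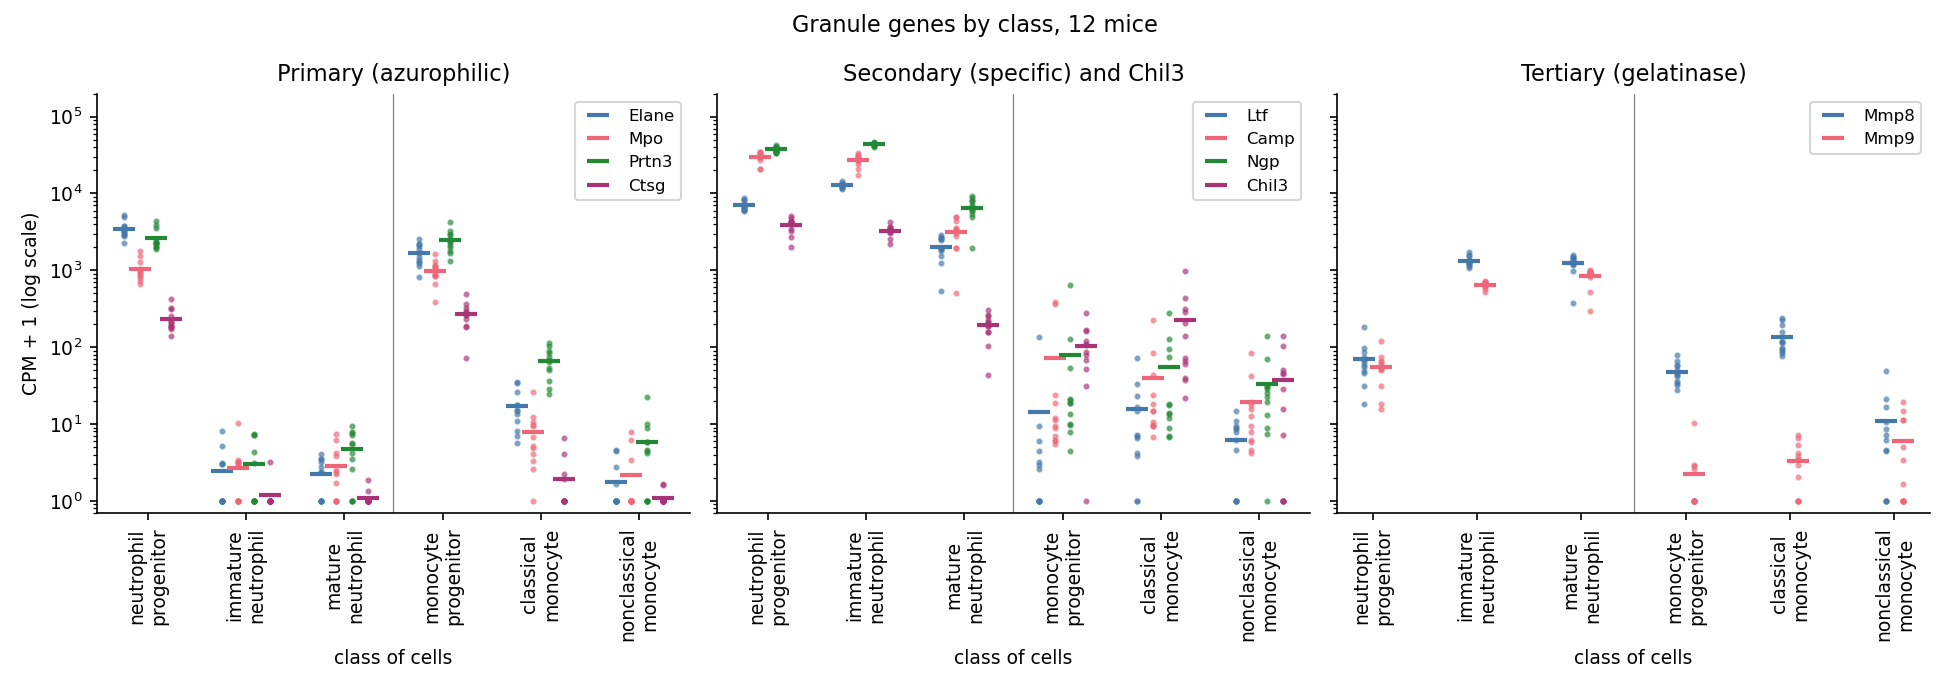
Level of each granule gene in 6 classes of liver myeloid cells (vertical axis, CPM + 1 on a log scale). Small points are the 12 mice and dashes are their means, with a line between the neutrophil and the monocyte lineage: primary genes are high in the progenitor classes, secondary genes in neutrophil progenitors and immature neutrophils, and Mmp8 and Mmp9 in immature and mature neutrophils.

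Secondary granule RNA was already high in the cells named neutrophil progenitors here and was lower in mature cells. With the 10 genes kept in the clustering, 0 cells took that name. A cluster of 576 cells, with Elane, Mpo, Prtn3 and Ctsg as top genes, was then named myeloid progenitors. Another of 660 cells, with Camp and Chil3 as top genes, was named immature neutrophils. The levels that follow are those of the clustering without the 10 genes. Ngp, neutrophilic granule protein, was the most abundant of the 10, at 37399 ± 2824 CPM in progenitors, 44079 ± 1931 CPM in immature and 6547 ± 1950 CPM in mature neutrophils. Camp, the precursor of cathelicidin, was at 29729 ± 4715, 27204 ± 4552 and 3172 ± 1282 CPM in these stages. Ltf, the iron-binding protein lactoferrin, was at 6981 ± 914, 12782 ± 826 and 2017 ± 694 CPM, so that its peak came at the immature stage. Chil3 was at 3867 ± 867 CPM in progenitors, 3288 ± 523 CPM in immature and 191 ± 71.3 CPM in mature neutrophils. Its range over the 12 mice was 2200 to 4218 CPM in immature and 41.8 to 303 CPM in mature cells, without overlap. In monocyte progenitors the median over mice was 1.76 CPM for Ltf, 9.42 for Camp and 17.8 for Ngp, whereas that of Chil3 was 95.3 CPM.

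Tertiary granule RNA was low in neutrophil progenitors and high in immature and mature neutrophils. Mmp8, neutrophil collagenase, was at 68.3 ± 41.5 CPM in neutrophil progenitors, 1325 ± 189 CPM in immature and 1242 ± 319 CPM in mature neutrophils. Mmp9, gelatinase B, was at 53.8 ± 27.8, 650.0 ± 61.1 and 838 ± 213 CPM in the same stages. Mmp8 is placed in secondary granules by some classifications, but between immature and mature cells it changed by less than the SD over mice, as Ltf, Camp and Ngp did not. In classical monocytes Mmp8 was at 133 ± 57.4 CPM and Mmp9 at 2.29 ± 2.21 CPM. Outside the myeloid classes Mmp8 had 12.4 ± 10.9 CPM in B-like cells.

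Together the 10 genes took 8.55 ± 0.651% of all UMIs in neutrophil progenitors, 8.93 ± 0.594% in immature and 1.40 ± 0.435% in mature neutrophils. The secondary genes with Chil3 made up 7.80, 8.74 and 1.19% of all UMIs in these stages. Single cells were compared after each was thinned to 1000 UMIs. Of the neutrophil progenitors, 25.8% (mean over 12 mice) held UMIs of both a primary and a secondary gene, and 64.8% held a secondary gene without a primary one. Both kinds were seen together in 0.467% of immature and 0.323% of mature neutrophils. Among monocyte progenitors 50.4% held a primary gene alone and 4.96% held both. In B-like cells at the same depth 0.515% held a primary gene alone, 3.05% a secondary gene alone and 0.0453% both. Cells called doublets made up 17.0% of neutrophil and 10.2% of monocyte progenitors, and their part in these shares was not tested. A tertiary gene was seen in 9.01% of neutrophil progenitors, 71.3% of immature and 76.4% of mature neutrophils. Chil3 itself was found in 73.6% of neutrophil progenitors, 82.8% of immature and 9.51% of mature neutrophils with all mice pooled. Thinning left out 9, 33 and 3078 cells of these stages as too shallow, so the shares in mature neutrophils describe the deeper cells.

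Patterns over the classes were alike among the primary genes and among Ltf, Camp and Ngp, whereas the tertiary genes did not stand apart from the latter. Over the means of 20 classes of liver cells on the log2(CPM + 10) scale, and among 8347 genes, Elane was most like Ms4a3 (Pearson r = 0.923), a marker of granulocyte and monocyte progenitors. Prss57, a further serine protease of primary granules, came next (r = 0.886), and then 1700020L24Rik (r = 0.808). Ltf was most like Wfdc21 (r = 0.985), Cstdc5 (0.979) and Cstdc4 (0.976). Chil3 was most like Abca13 (r = 0.950), Cebpe (0.948), a transcription factor of secondary granule formation, and S100a8 (0.940), a subunit of calprotectin. Mmp9 was most like Ceacam10 (r = 0.985), Scrg1 (0.981) and 9830107B12Rik (0.977). Among the 10 genes themselves, the primary ones had r of 0.754 to 0.961 and Ltf, Camp and Ngp r of 0.995 to 0.998 with each other. Mmp9 had r of 0.867 with Mmp8 and 0.897 with Ltf, and Mmp8 had r of 0.815 with Chil3. Chil3 had r of 0.889 to 0.897 with Ltf, Camp and Ngp and 0.445 to 0.545 with the primary ones. The classes come from the same 12 libraries, so these values are descriptions.

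Chil3 in monocytes separated the groups, with all 6 anemic mice above the highest control. In classical monocytes the lowest control had 20.6 CPM, the median was 49.6 and the highest 71.4, and the anemic mice had 138, 302 and 984 CPM. The groups did not overlap, and the fold change was 8.17 (log2 3.03 ± 0.417 SE, adjusted p = 0.0015, edgeR quasi-likelihood test with Benjamini-Hochberg adjustment, 6 against 6 mice). In nonclassical monocytes 4 UMIs were counted in 790 control cells and 225 in 1637 anemic cells. The controls there had 0, 0 and 14.5 CPM and the anemic mice 27.5, 47.7 and 140 CPM as lowest, median and highest, a difference of 2.47 on the log2(CPM + 10) scale. The gene passed the minimum of 5 UMIs a mouse in that class only through the anemic mice, so the edgeR fit (log2 4.27 ± 0.652, adjusted p = 0.00088) is given as a description and supports nothing. Of 6 classical markers, Ccr2, Ly6c2 and Ms4a6c were called higher in the same class (log2 0.95, 2.08 and 1.32 by edgeR), with 0.88, 0.88 and 0.96 when anemic mice 2 and 3 were left out, where Ly6c2 was not called. Their part in the difference of Chil3 was not tested. With both classes summed, the controls had 18.3, 29.4 and 49.6 CPM and the anemic mice 113, 236 and 784 CPM. Chil3 was 9.51-fold higher there (log2 3.25 ± 0.414, adjusted p = 0.00034 by edgeR), and at a finer clustering the log2 value was 1.66 (adjusted p = 0.0301 by edgeR). Without anemic mice 2 and 3 the log2 differences were 3.10 in classical, 4.57 in nonclassical and 3.41 in summed monocytes by edgeR. Chil3 was included with its higher level known, so these values are not independent evidence of it.

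Of the 9 genes other than Chil3, 6 could be tested in summed monocytes and 1 was called, Mmp8, where 1.58% of 9643 genes were called in either direction, 0.612% were called higher and 0.684% had every anemic mouse above every control. In classical monocytes 1 of 6 was called, again Mmp8, against a background of 0.321% of 8731 genes called in either direction, 0.206% called higher and 0.389% with every anemic mouse above every control. In nonclassical monocytes 0 of 3 were called by edgeR or limma and 0 had an unadjusted p under 0.05 by edgeR, with Mmp8 tested only through its UMIs in anemic mice, against 3.63% of 7171 genes called in either direction, 1.58% called higher and 0.641% with every anemic mouse above every control.

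**Figure D2:**
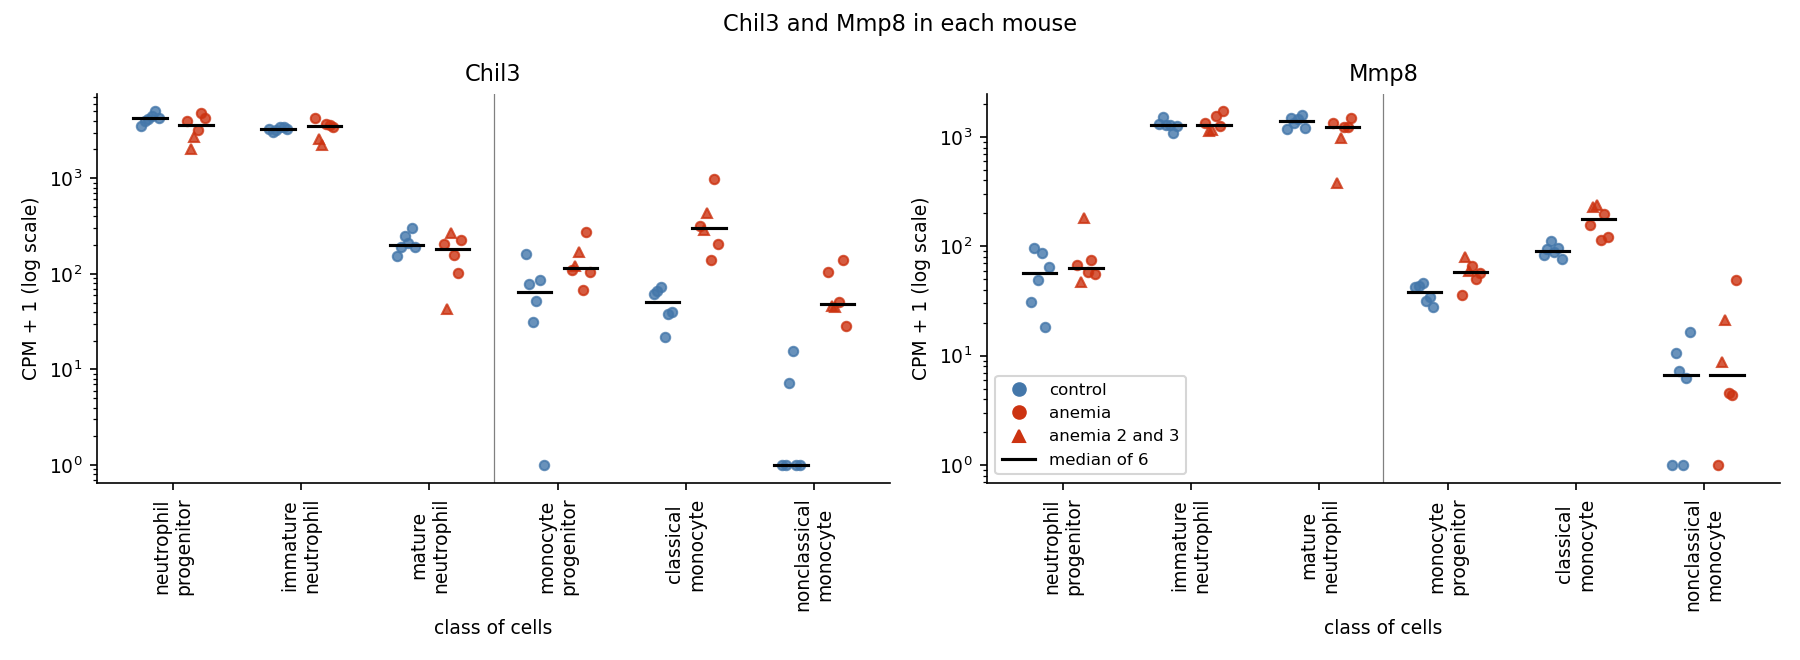
Chil3 (left) and Mmp8 (right) in each mouse by class of cells (vertical axis, CPM + 1 on a log scale), with controls in blue, anemic mice in red, triangles for anemic mice 2 and 3 and bars for the medians of 6 mice. In classical monocytes all anemic mice lie above all controls for both genes (138 CPM and more against 71.4 and less for Chil3), and in immature neutrophils the groups overlap.

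Both the share of monocytes with Chil3 and the UMIs in such cells were higher. Of 860 control classical monocytes, 57 held a Chil3 UMI, 12 held at least 3 and 0 at least 10, with at most 7 in a cell. Of 2493 anemic ones, 789 held a UMI, 414 at least 3 and 68 at least 10, with up to 40 in a cell. After thinning to 1000 UMIs, Chil3 was found in 0 to 3.43% of summed monocytes in controls and in 6.31 to 30.4% in anemic mice, without overlap. The means were 1.68 ± 1.23% and 13.97 ± 8.77%, a difference of 12.3 points (exact two-sided permutation test, p = 0.00216, the smallest that 6 against 6 mice allow). Since Chil3 was included with its higher level known, these tests describe that difference and do not add to it. Leaving out anemic mice 2 and 3 gave a difference of 12.9 points (exact permutation test, p = 0.00952). Control 4 had 0 of 226 cells at that depth, which allows a share of up to 1.33% at that depth (counting error only), and held Chil3 in 2.60% of 231 cells before thinning. B-like cells, in which the gene is not known to be active, held a Chil3 UMI in 0.340 ± 0.0413% of control and 0.431 ± 0.304% of anemic cells at the same thinned depth. Before thinning, the median depth of classical monocytes was 3133 UMIs in anemic mice and 2397 in controls, and the shares of monocytes with Chil3 were 3.58% in controls and 21.9% in anemic mice.

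Chil3 and Ngp stood in another ratio in classical monocytes than in neutrophils. In neutrophil progenitors Chil3 had 0.0937 to 0.139 UMIs for each Ngp UMI in controls and 0.0599 to 0.122 in anemic mice. In immature neutrophils the ratios were 0.0690 to 0.0831 and 0.0514 to 0.0891, and in mature neutrophils 0.0217 to 0.0350 and 0.0204 to 0.0406. In classical monocytes of anemic mice the ratio was 1.10 to 77.4 with a median of 11.7, from 3199 Chil3 and 552 Ngp UMIs. No neutrophil class of any mouse reached this range. Control classical monocytes had 109 UMIs of each gene and ratios of 0.258 to 8.25 with a median of 3.5. Control nonclassical monocytes had 4 Chil3 and 40 Ngp UMIs and ratios of 0 to 0.5 with a median of 0. Those of anemic mice had 225 Chil3 and 95 Ngp UMIs and ratios of 0.4 to 4.56 with a median of 3.04. B-like cells had ratios of 0.0760 to 0.111 in controls and 0.0868 to 0.431 in anemic mice. Their Ngp, at 286 ± 213 CPM, was above the 11.3 ± 5.93 CPM of T-like cells, and the source of either was not tested.

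**Figure D3:**
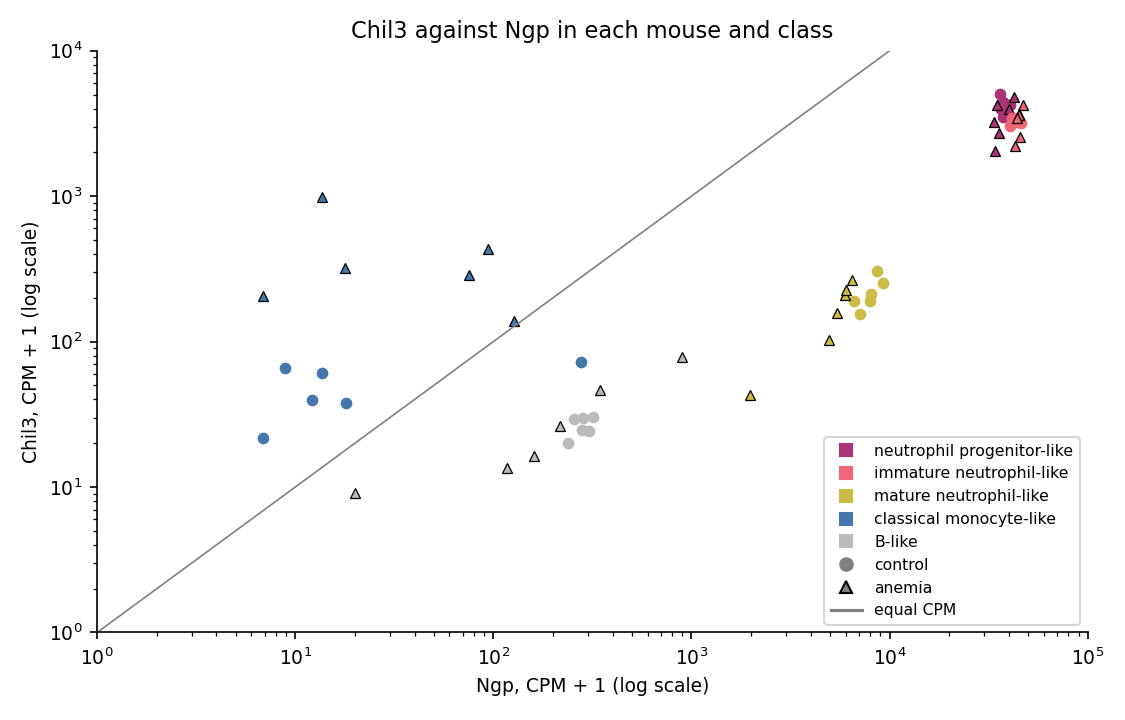
Chil3 (vertical) against Ngp (horizontal) in each mouse for 5 classes, both in CPM + 1 on log axes, with circles for controls, triangles for anemic mice and a line of equal CPM. Classical monocytes lie above the line in all mice except control 3, the neutrophil classes lie below it, and B-like cells lie below it in every mouse.

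Cells with and without Chil3 were compared within the anemic classical monocytes, thinned to 1000 UMIs, of which 497 held Chil3 and 1920 did not. Ngp was found in 0.813 ± 0.985% of the former and 1.46 ± 1.31% of the latter (SD over 6 mice), and Camp in 1.51 ± 1.37% and 0.663 ± 0.554%, higher in the cells with Chil3 in 1 of 6 mice for Ngp and in 4 of 6 for Camp. Mmp8 was found in 17.0 ± 6.83% and 13.7 ± 3.08%, higher in the cells with Chil3 in 4 of 6 mice. Lcn2, lipocalin 2, was found in 12.4 ± 11.8% and 5.72 ± 5.20%, higher in 5 of 6. These shares overlapped widely between mice. Cells called doublets made up 6.89 ± 2.79% and 6.78 ± 2.45%. When monocytes with a UMI of Retnlg, Stfa2l1, Ltf, Camp or Ngp were left out, Chil3 had a log2 difference of 3.64 between the groups by edgeR. With the level in B-like cells of the same mouse subtracted, the difference was 3.70 on the log2(CPM + 10) scale in summed monocytes (exact permutation test, p = 0.00216). It was 2.66 on that scale as measured. Subtraction took the control mean from 31.8 to 9.07 CPM and the anemic mean from 300 to 269 CPM. In classical monocytes the values were 3.34 after subtraction and 2.58 as measured. Chil3 was included with its higher level known, so the values of this paragraph are descriptions. In nonclassical monocytes the subtraction set all controls to 0, so no test of it is given. Chil3 was at 28.1 ± 18.3 CPM in B-like and at 1.32 ± 0.908 CPM in T-like cells, so the subtraction took away more than T-like cells would give, and it does not measure the removal of free RNA.

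How the cells were divided mattered for nonclassical and so for summed monocytes. At the finer resolution of the second clustering, that class gained a cluster of 217 cells with a median of 4495 UMIs, of which 60.4% were called doublets, and with a mean of 20063 CPM of Ngp in controls. With it, nonclassical cells of controls held 179 ± 155 CPM of Chil3 and those of anemic mice 216 ± 141 CPM, and the gene was not called (log2 0.16, adjusted p = 0.907 by edgeR). Without that cluster Chil3 was at 3.52 ± 6.05 and 74.2 ± 46.2 CPM, a log2(CPM + 10) difference of 2.57. The cluster was set aside after its values were seen, so this value is a description with no test. In the coarser clustering 155 of these 217 cells were counted as mature neutrophils and 48 as neutrophil progenitors.

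Mmp8 was the second of the 10 genes to be higher in monocytes. The paper also lists Mmp8 as higher in anemic monocytes of these livers, so the values here are not independent evidence of it. In classical monocytes the controls had 75.0, 90.5 and 112 CPM and the anemic mice 114, 176 and 239 CPM as lowest, median and highest, without overlap. The fold change was 2.01 (log2 1.00 ± 0.193, adjusted p = 0.0218 by edgeR). Without anemic mice 2 and 3 the log2 difference was 0.71 and the call was lost (adjusted p = 0.0517 by edgeR), and limma's voom model gave an adjusted p of 0.068 with all mice. The call was also lost when control 1, 2, 4, 5 or 6 or anemic mouse 3 was left out (log2 0.89 to 1.02, adjusted p = 0.0585 to 0.0815 by edgeR), and kept without each of the other 6 mice. In summed monocytes the controls had 45.8, 58.0 and 76.4 CPM and the anemic mice 82.6, 131 and 155 CPM, again without overlap. Mmp8 was 2.19-fold higher there (log2 1.13 ± 0.168, adjusted p = 0.0012 by edgeR), and was called without anemic mice 2 and 3 (log2 0.96, adjusted p = 0.0012 by edgeR). The share of classical cells in the sum was higher in every anemic mouse except mouse 3 than in any control. In controls 1 to 6 it was 127 of 281, 205 of 375, 143 of 260, 119 of 231, 134 of 247 and 132 of 256. In anemic mice 1 to 6 it was 222 of 320, 919 of 1521, 664 of 1286, 225 of 353, 304 of 424 and 159 of 226. Control classical monocytes averaged 91.1 CPM of Mmp8, and the part of this mix in the summed values was not tested. In nonclassical monocytes alone Mmp8 was not called, with 6.08 ± 5.91 CPM in controls and 13.8 ± 18.2 CPM in anemic mice (log2 1.02 ± 0.731, adjusted p = 0.501 by edgeR). It had 0 to 3 UMIs per control mouse there and passed the minimum of 5 UMIs through the anemic mice, so that fit is a description.

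The remaining genes gave no call in monocytes. Prtn3, Elane, Ltf, Camp and Ngp had log2 differences of -0.53 to 0.67 in summed monocytes with SEs of 0.308 to 0.653, so changes of that size were not detectable there. Single mice moved these values: Ltf, Camp and Ngp had 2.43, 0.78 and 1.33 when control 3 was left out, none of them called. Mpo, Ctsg and Mmp9 were below the minimum of 5 UMIs a mouse. The monocytes differed between groups in further RNA. Summed neutrophil markers were 1002 to 2619 CPM in control and 1036 to 6627 CPM in anemic monocytes, with 6268 and 6627 CPM in anemic mice 2 and 3. Summed hepatocyte markers were 2115 to 3004 CPM in control and 256 to 1525 CPM in anemic monocytes. Summed erythroid markers were 887 to 2715 CPM in control and 1435 to 3575 CPM in anemic monocytes, where 6 of 6 tested had an unadjusted p under 0.05 by edgeR and 0 were called, or 2 when anemic mice 2 and 3 were left out. The part of these in the results was not tested, and Chil3 had a log2 difference of 3.41 without anemic mice 2 and 3 against 3.25 with them.

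In the neutrophil stages no member was called by the main edgeR fit with all mice. Other settings gave some calls, and those of Prtn3, Camp, Ltf and Ngp are given below. In immature neutrophils Chil3 had 3032, 3283 and 3468 CPM as lowest, median and highest in controls and 2200, 3545 and 4218 CPM in anemic mice, with overlapping groups (log2 -0.05 ± 0.114, adjusted p = 0.929 by edgeR). Mmp8 had a log2 difference of 0.02 ± 0.111. Ltf had 11332, 12298 and 12563 CPM in controls and 12743, 13284 and 14320 CPM in anemic mice, which did not overlap, as in 0.452% of genes, but its log2 difference of 0.10 ± 0.0824 was not called (adjusted p = 0.747 by edgeR). Of the 6 genes tested in that stage 0 were called by edgeR, DESeq2 or limma and 0 had an unadjusted p under 0.05 by edgeR, where 558 of 5089 genes had such a p and 0.904% were called. RNA of other cells did move in that class: all 5 hepatocyte markers were called lower and 4 of 7 erythroid ones, all globins, were called higher. Their part in the results was not tested.

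In neutrophil progenitors 0 of 10 were called by edgeR, 1 by DESeq2 and 0 by limma, where edgeR called 0.377% of 6888 genes and DESeq2 called 28. An unadjusted p under 0.05 by edgeR was found for 5 of the 10, beside 563 of 6888 genes. Chil3 had 3490, 4233 and 5026 CPM in controls and 2033, 3592 and 4804 CPM in anemic mice, with overlapping groups (log2 -0.41 ± 0.151, adjusted p = 0.428 by edgeR). In monocyte progenitors 0 of 9 were called by edgeR, 0 by DESeq2 and 1 by limma, where edgeR called 0.318% of 8184 genes and DESeq2 called 30. The limma call was Ctsg (adjusted p = 0.0468). It is given without the share of all genes that limma called, so it is a description and not read as a result. An unadjusted p under 0.05 by edgeR was found for 6 of the 9, beside 725 of 8184 genes. Ltf, 1 of these 6, had 135 CPM in anemic mouse 6 and 8.57 CPM in the next highest anemic mouse. With 1 mouse left out at a time it could be fitted only 11 times, so its p is a description. Chil3 had a median of 64.2 CPM in controls and 114 CPM in anemic mice there, with overlapping groups (log2 1.04 ± 0.371, adjusted p = 0.359 by edgeR).

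**Figure D4:**
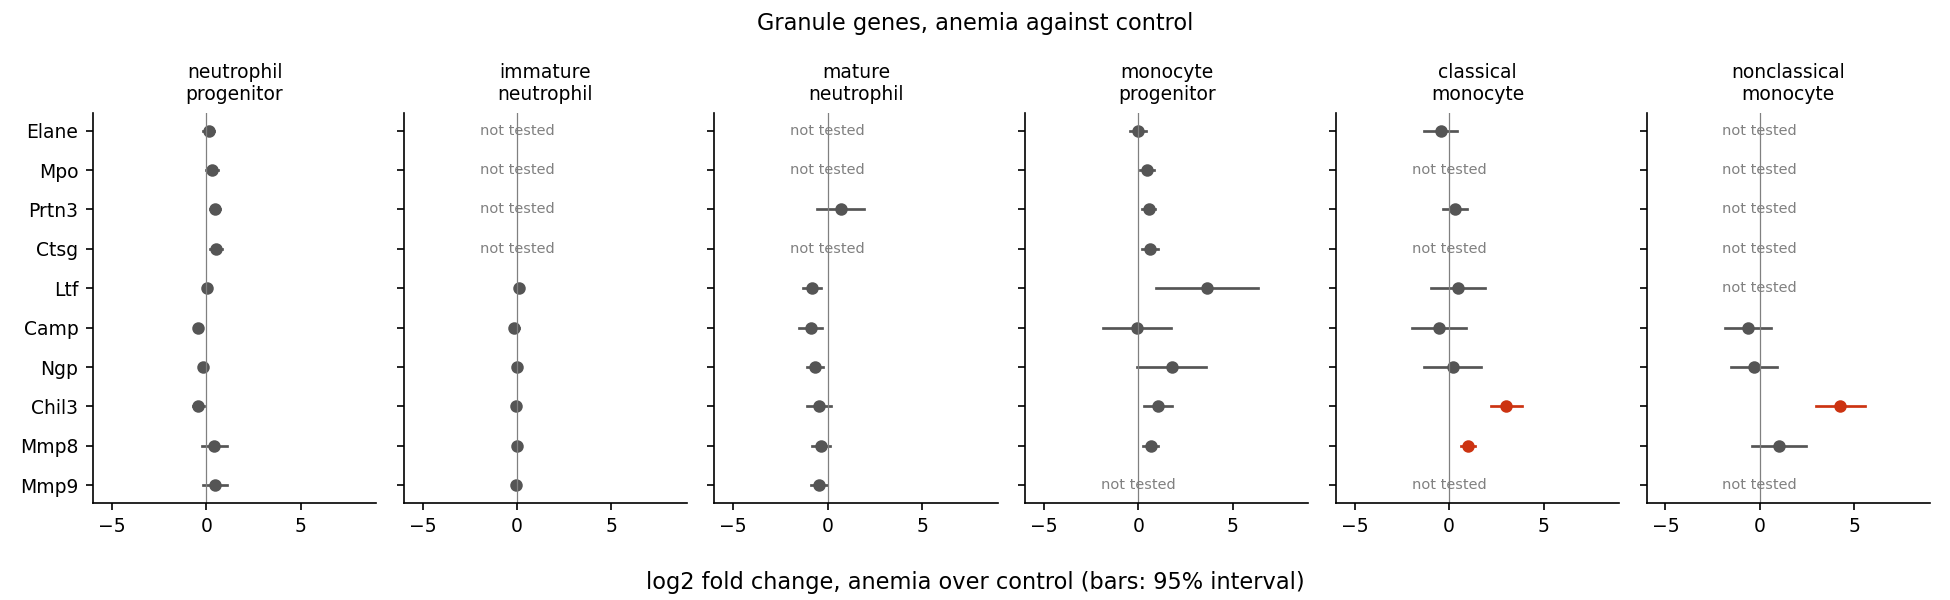
Log2 fold change of each granule gene, anemia over control (horizontal axis), in 6 classes, with bars for the 95% interval and called genes in red. The values in red are Chil3 in both monocyte classes (3.03 and 4.27, the latter a description, since the gene passed the filter only through the anemic mice) and Mmp8 in classical monocytes (1.00), and genes too low to fit are marked as not tested.

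The difference between classes was itself compared within mice. For Chil3, which was included with its higher level in anemic monocytes known, these values are descriptions. The same holds for Mmp8, which the paper lists as higher in these monocytes. On the log2(CPM + 10) scale the difference in Chil3 between anemic and control mice was larger in summed monocytes than in neutrophil progenitors by 2.99, than in immature neutrophils by 2.69 and than in mature neutrophils by 3.18 (exact permutation tests, each p = 0.00216, adjusted p = 0.00433 over 8 comparisons). Without anemic mice 2 and 3 these values were 2.76, 2.51 and 3.03 (each p = 0.00952 by the exact permutation test, the smallest that 4 against 6 mice allow). For Mmp8 the excess was 0.89 over immature (adjusted p = 0.0208) and 1.37 over mature neutrophils (adjusted p = 0.00433), and 0.50 over neutrophil progenitors (adjusted p = 0.326), by exact permutation tests. The excess of Mmp8 over immature neutrophils was 0.64 without anemic mice 2 and 3 (exact permutation test, p = 0.0571), and that over mature neutrophils 0.86 (exact permutation test, p = 0.00952). Between nonclassical and classical monocytes the differences were -0.11 for Chil3 (adjusted p = 0.831) and -0.46 for Mmp8 (adjusted p = 0.433) by exact permutation tests.

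Among primary genes, Prtn3 in neutrophil progenitors had 1882, 2094 and 2251 CPM in controls and 2288, 3080 and 4380 CPM in anemic mice. The groups did not overlap, as in 0.755% of genes, and the gene was not called (log2 0.46 ± 0.138, adjusted p = 0.262 by edgeR). It was called by edgeR without TMM (log2 0.63, adjusted p = 0.0399), where 31 of 6888 genes were called. With no filter on low counts it was also called (adjusted p = 0.0034 by edgeR), where 152 of 17110 genes were. Ctsg had a log2 difference of 0.53 ± 0.170, Mpo 0.32 ± 0.166 and Elane 0.14 ± 0.148 in that class. In monocyte progenitors the log2 differences were 0.54 for Prtn3, 0.62 for Ctsg, 0.46 for Mpo and -0.02 for Elane, none of them called. With both progenitor classes summed, Prtn3 had 0.48 ± 0.119 (adjusted p = 0.0778 by edgeR, which called 0.558% of 9327 genes). It was called by DESeq2 (adjusted p = 0.0338), which called 58 of the 9327 genes. Limma called 62 of 9022 genes there, among them 3 members, Prtn3 (adjusted p = 0.0162), Ctsg (0.00482) and Camp (0.0219). Prtn3 and Ctsg were also called by edgeR with sex as a covariate, with the replicate block and without TMM (adjusted p = 0.0151 to 0.0417). These 3 fits called 40, 78 and 61 of 9327 genes. Prtn3 had a log2 difference of 0.38 when anemic mice 2 and 3 were left out (adjusted p = 0.251 by edgeR). Summed hepatocyte markers were 837 to 1197 CPM in control and 113 to 618 CPM in anemic progenitors, with 4 of 5 called lower, and summed erythroid markers 425 to 3212 and 1058 to 7484 CPM, with 1 of 7 called higher. The median of interferon response genes was 1.83 and became 0.03 when anemic mice 2 and 3 were left out. Their part in the results was not tested. Camp had 30296, 33197 and 35013 CPM in control and 20825, 28557 and 30198 CPM in anemic neutrophil progenitors. These did not overlap, as in 0.218% of genes, and Camp was called by DESeq2 (adjusted p = 0.0109) but not by edgeR (log2 -0.45 ± 0.103, adjusted p = 0.0594). It was called by edgeR with the replicate block (adjusted p = 0.0165), with doublets left out (0.0104) and at the finer clustering (0.0353). These fits called 35 of 6888, 34 of 6162 and 32 of 6712 genes. Anemic mice 2 and 3 had the lowest values, and with both left out the difference was -0.30 (adjusted p = 0.350 by edgeR).

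In mature neutrophils, calls of the secondary genes turned on the model, on the filter on low counts and on the libraries that stood apart. Ngp had 6584, 8044 and 9251 CPM in controls and 1964, 5711 and 6480 CPM in anemic mice, without overlap, as in 0.786% of genes. Ltf had medians of 2598 and 1666 CPM and Camp of 3986 and 2390 CPM in control and anemic mice. With all mice 0 of 7 members were called by the main edgeR fit and 0 by DESeq2. Limma called 3, Ltf, Camp and Ngp, where it called 128 of 8029 genes. An unadjusted p under 0.05 by edgeR was found for 3 members. Over all genes 1236 of 7637 had such a p and 0.183% were called by edgeR. With no filter on low counts edgeR called Ltf, Camp and Ngp (adjusted p = 0.0070, 0.0112 and 0.0374), where 435 of 19373 genes were called. In the main fit the log2 differences were -0.82 ± 0.236 for Ltf, -0.89 ± 0.315 for Camp and -0.69 ± 0.218 for Ngp (adjusted p = 0.143, 0.195 and 0.163 by edgeR). Without anemic mice 2 and 3 they were -0.66, -0.57 and -0.53, and all 3 were called (adjusted p = 0.0057, 0.0442 and 0.0130 by edgeR), where 96 of 6218 genes were called. Without anemic mouse 2 alone Ltf was called (log2 -0.64, adjusted p = 0.0390 by edgeR). Anemic mouse 2 had the lowest value of the 12 mice for each, 533 CPM of Ltf, 499.6 CPM of Camp and 1964 CPM of Ngp. Mmp8 and Mmp9 had log2 differences of -0.36 ± 0.238 and -0.46 ± 0.222 with all mice and of -0.08 and -0.15 without these mice. Chil3 had 154, 200.2 and 303 CPM in controls and 41.8, 182 and 263 CPM in anemic mice, with overlapping groups (log2 -0.46 ± 0.322, adjusted p = 0.504 by edgeR). After thinning, a tertiary gene was found in 87.0 ± 3.90% of control and 65.9 ± 18.3% of anemic mature cells, and a secondary gene without a primary one in 71.1 ± 5.96% and 44.0 ± 13.8%. The 4 anemic mice other than 2 and 3 had 76.0 ± 5.00% and 50.2 ± 6.63%. Summed hepatocyte markers were 3439 to 4883 CPM in control and 354 to 2775 CPM in anemic mature neutrophils, and summed erythroid markers 1034 to 2333 and 2224 to 6914 CPM. Their part in the results was not tested.

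**Figure D5:**
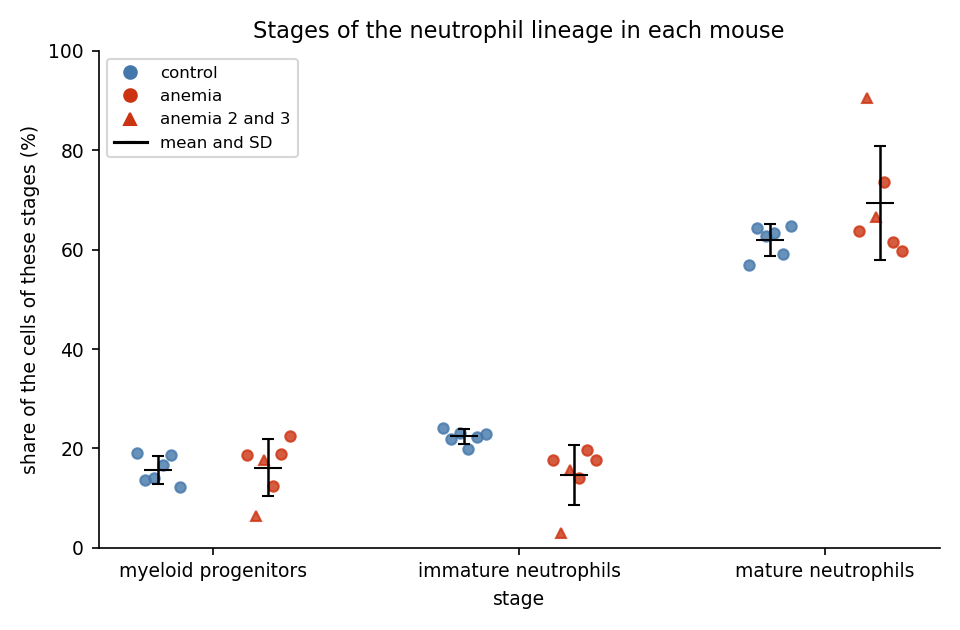
Share of myeloid progenitors, immature and mature neutrophils among the cells of these 3 stages in each mouse (vertical axis, percent), with mean and SD, controls in blue, anemic mice in red and triangles for anemic mice 2 and 3. The immature share of every anemic mouse (19.7% and less) lies below that of every control (19.9% and more), and anemic mouse 2 has the lowest share.

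Immature neutrophils, the stage with the highest level of Ltf, Ngp and Mmp8, were a smaller share of the lineage in anemia. They made up 19.9, 22.6 and 24.2% of the 3 stages in controls and 2.99, 16.6 and 19.7% in anemic mice as lowest, median and highest, without overlap. The means were 22.4 ± 1.43 and 14.6 ± 6.02%, and the share fell by 7.80 points (exact permutation test, p = 0.00216, adjusted p = 0.00649 over 3 stages). When anemic mice 2 and 3 were left out it fell by 5.15 points (exact permutation test, p = 0.00952, adjusted p = 0.0286). Mature neutrophils made up 61.9 ± 3.20 and 69.3 ± 11.5% (adjusted p = 0.218) and myeloid progenitors, which here include those of monocytes, 15.7 ± 2.79 and 16.1 ± 5.74% (adjusted p = 0.898), both by the exact permutation test.

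Other genes of the granule pathway were taken from lists chosen together with the 10 genes, and are read beside the 1.58% of all genes called in summed monocytes and the 0.612% called higher. Of 8 other secondary granule genes, 7 could be tested in summed monocytes and 1 was called, Lcn2, the siderophore-binding protein lipocalin 2, which was higher (log2 2.20 ± 0.462, adjusted p = 0.0197 by edgeR). An unadjusted p under 0.05 was found for 4 of these 7, beside 1503 of 9643 genes in that class. Leaving out anemic mice 2 and 3 gave Lcn2 a difference of 1.24 (adjusted p = 0.0307 by edgeR). The paper also lists Lcn2 as higher in anemic monocytes of these livers, so its values here are not independent evidence. Of 7 other tertiary granule genes, 6 were tested and 1 was called, Adam8, a membrane metalloprotease (log2 0.91 ± 0.202, adjusted p = 0.0258 by edgeR), which lost its call without these mice (adjusted p = 0.104). Of 5 other primary granule genes 3 were tested and 0 called by edgeR, with 1 at an unadjusted p under 0.05. Of 5 genes of protease processing and packaging 4 were tested and 0 called, with 1 at such a p, among them Ctsc, the protease that activates granule serine proteases (log2 0.47, adjusted p = 0.177 by edgeR). Of 10 transcription factors of granule genes 8 were tested and 1 was called, Klf4, a factor of monocyte fate, which was lower (log2 -0.63 ± 0.148, adjusted p = 0.0360 by edgeR, and -0.40 with adjusted p = 0.0276 when anemic mice 2 and 3 were left out). Cebpe had a log2 difference of -0.08. The medians of these lists were 0.08 for other primary, 0.10 for other secondary, 0.14 for other tertiary and 0.22 for processing genes and -0.05 for the factors, beside 0.01 over all genes tested. In neutrophil progenitors, immature and mature neutrophils 0 genes of these 5 lists were called by edgeR. An unadjusted p under 0.05 was found for 3 of 30, 4 of 27 and 4 of 29 genes tested, beside 563 of 6888, 558 of 5089 and 1236 of 7637 over all genes.

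Markers within the monocyte class moved as well. Of 8 nonclassical markers, Ace, Cd300e, Spn and Treml4 were lower in anemic summed monocytes, with log2 differences of -0.65, -1.40, -0.64 and -0.85, and of 6 classical markers Ms4a6c was higher (0.50). When anemic mice 2 and 3 were left out, Ace, Cd300e and Treml4 were still called (log2 -0.65, -1.40 and -0.96), and Spn (-0.52, adjusted p = 0.104 by edgeR) and Ms4a6c (0.39, adjusted p = 0.0829) were not. In that fit the classical markers Ccr2, Csf1r and F13a1 (log2 0.50, -0.39 and 0.77) and the nonclassical marker Eno3 (-0.97) were called as well. Of 8 hypoxia response genes, beside 0.612% of all genes, 2 were called higher, Bnip3, a mitophagy receptor (log2 1.02, adjusted p = 0.0351 by edgeR), and Pgk1, a glycolytic enzyme (log2 0.73, adjusted p = 0.0258 by edgeR), and both lost the call without anemic mice 2 and 3. Of 9 interferon response genes 0 were called by edgeR in summed monocytes and in mature neutrophils, where 3 and 7 had an unadjusted p under 0.05. Their median log2 differences of 0.97 and 1.57 became 0.12 and -0.29 when anemic mice 2 and 3 were left out. The paper also lists Bnip3, Pgk1, Ms4a6c, Ccr2 and F13a1 as higher in anemic monocytes of these livers. Their values in this report are therefore not independent evidence. The chitinase-like gene Chil1 had 14 UMIs in classical monocytes and 3727 in mature neutrophils.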

How the data were processed

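The authors aligned the reads with Cell Ranger (matrix header 7.0.0, build mm10) and deposited 1 matrix of raw UMI counts per liver, with cells already called. The annotation and the chemistry could not be settled, since the kit version differs between the labels and the methods. The filter of the study's methods (500 to 50000 UMIs, mitochondrial share up to 50%) left 206146 of 207537 barcodes and 14184 to 21186 cells per mouse, from 46252146 to 74545930 UMIs per mouse as deposited. Expected doublets were called (11.5 to 17.0% per mouse) and kept, and were left out as an alternative.

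Cells were clustered with scanpy 1.11.5 and leidenalg 0.10.2 on 2000 variable genes less the 10 members (20 components, 20 neighbours, resolution 2), and myeloid cells again at resolution 1. A cluster took the name of the marker list with the highest mean log2 fold where at least 3 markers were raised (log2 fold over 1). No name was given where markers of a different class prevailed among the top 10 genes, where the cluster was shallow without a marker there, where it was a mixture, or where it had no marker there and fewer than 5 raised. Clusters that also raised at least 3 markers of myeloid progenitors were called progenitors. Some of these rules were added after the clusters had been seen. No marker list used for naming holds a member.

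UMI counts as deposited were summed per mouse and class and fitted with edgeR 4.0.16 in R 4.3.3 (TMM, quasi-likelihood test, Benjamini-Hochberg adjustment over all genes tested), leaving out genes under 5 UMIs per mouse on average and mitochondrial or ribosomal protein genes. A gene was called at an adjusted p under 0.05. DESeq2 1.42.0 and limma 3.58.1 were alternatives. Differences in shares and levels per mouse were tested by exact permutation in scipy 1.17.1, levels after log2(CPM + 10). The depth limits the precision, and p-values cover the spread between the 6 livers of a group. The edgeR fit was tested on simulated data: in summed monocytes it recovered 67 of 96 genes changed 2-fold and 85 of 86 changed 4-fold, with 3 false calls, in neutrophil progenitors 67 of 95 and 88 of 88, with 2, and in mature neutrophils 34 of 88 and 86 of 87, with 5.

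The members and the gene lists were chosen with earlier results of these data known. The genes named are the 10 members, list genes on which a result turns, and for Elane, Ltf, Chil3 and Mmp9 the 3 genes most like them by Pearson r over the classes among genes with at least 50 CPM in a class. Replicate numbers in the labels were shared between groups but were not taken to pair the mice. Sequences came from RefSeq promoters (GRCm38.p6), which list 9 of the 10 members.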

Additional observations from a re-analysis of the deposited data

Results flagged for a closer look

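Among groups of 6 mice, 94 were searched for a mouse far from the others, and 18 such values were found, 8 of them in controls. Chance would give about 1 in 20 groups, or 4.7.

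In neutrophil progenitors, control 6 stood above the other controls for Ltf (8231 CPM) and anemic mouse 3 above the other anemic mice for Mmp8 (180 CPM). In mature neutrophils anemic mouse 2 stood below the others for Ngp (1964 CPM), and its share of immature neutrophils, 2.99%, was also far below the rest.

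Secondary granule RNA stood out in single mice in the monocyte lineage. In monocyte progenitors anemic mouse 6 had 135 CPM of Ltf, 387 CPM of Camp and 649.9 CPM of Ngp, and control 4 had 367.5 CPM of Camp and 125 CPM of Ngp. In classical monocytes control 3 had 71.4 CPM of Ltf, 223 CPM of Camp and 276 CPM of Ngp. In nonclassical monocytes control 6 had 82.2 CPM of Camp and 139 CPM of Ngp, and anemic mouse 6 had 41.2 and 68.7 CPM. Camp and Ngp were high in the same mouse in each case.

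For Chil3, anemic mouse 5 stood above the other anemic mice in classical monocytes (984 CPM), and Chil3 was found in 30.4% of its summed monocytes. The lowest anemic mouse lay above the highest control for both measures. Without this mouse the difference in the share of monocytes with Chil3 was 8.99 points (exact permutation test, p = 0.0043). That value is a description, since the higher level of Chil3 was known when it was included.

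The difference between anemic and control mice differed between classes in 5 tests on the log2(CPM + 10) scale. These are descriptions, since Chil3 was included with its level in monocytes known and the paper lists Mmp8 as higher there. Chil3 in summed monocytes exceeded neutrophil progenitors by 2.99, immature neutrophils by 2.69 and mature neutrophils by 3.18. Mmp8 in summed monocytes exceeded immature neutrophils by 0.89 and mature neutrophils by 1.37.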

How the results depend on the processing

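The 10 genes gave 60 differences with 1399 alternative values, of which 1254 kept direction and side of the threshold, 90 had another sign without a call, 9 lost a call and 46 gained one, and 0 were called in the opposite direction. The log2 difference of Chil3 was 1.66 to 3.64 in summed monocytes (called under 27 of 27 alternatives), 2.54 to 3.20 in classical (24 of 24) and, as a description, 0.16 to 5.79 in nonclassical monocytes (22 of 23, the exception being the finer clustering). Mmp8 had 0.90 to 1.23 in summed (27 of 27) and 0.71 to 1.13 in classical monocytes (16 of 24), and in nonclassical ones it was called under 0 of 18.

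Genes called with all mice numbered 52 in myeloid, 26 in neutrophil and 26 in monocyte progenitors, 46 in immature and 14 in mature neutrophils, and 28 in classical, 260 in nonclassical and 152 in summed monocytes. With 1 mouse left out they were 31 to 85, 15 to 27, 9 to 33, 21 to 56, 1 to 52, 15 to 55, 71 to 392 and 68 to 220. With no filter on low counts they were 266, 152, 173, 124, 435, 264, 570 and 415. A minimum mean of 50 UMIs gave 19 in myeloid, 17 in neutrophil and 2 in monocyte progenitors, 23 in immature and 0 in mature neutrophils, and 16 in classical and 151 in nonclassical monocytes. DESeq2 called 29 in immature and 98 in mature neutrophils, 49 in classical and 229 in summed monocytes. limma called 21 and 128 in the same neutrophil stages, and 69 in classical, 513 in nonclassical and 299 in summed monocytes. A replicate block gave 66 in monocyte progenitors, 78 in immature and 126 in mature neutrophils, 133 in classical and 428 in summed monocytes. Same-numbered mice deviated together with correlations of -0.247 to 0.425. All 6 were positive in mature neutrophils and in classical and nonclassical monocytes, but in no class were all 6 over 0.1, so the numbers were not taken as pairs. Sex, which was not balanced between the groups, gave 15 as a covariate in neutrophil progenitors, 27 in immature and 8 in mature neutrophils. Without anemic mice 2 and 3 there were 15 in monocyte progenitors, 96 in mature neutrophils and 65 in nonclassical monocytes, and with doublets left out 11 in monocyte progenitors and 42 in mature neutrophils. The finer clustering gave 45 in classical monocytes. With the members kept among the variable genes there were 2 in myeloid progenitors, 53 in classical, 105 in nonclassical and 53 in summed monocytes. Summed monocytes had 76 with monocyte progenitors added and 81 with the unnamed cluster added.

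The immature share fell by 5.47 to 8.82 points with 1 mouse left out, and the progenitor difference was -0.897 to 2.32 points. With neutrophil progenitors only, the progenitor difference was -0.447 points and the mature difference 8.51 points (exact permutation test, adjusted p = 0.0422). With the members kept among the variable genes, myeloid progenitors had 6588 CPM of Elane, 2968 of Mpo, 6288 of Prtn3 and 701 of Ctsg. Immature neutrophils then had 11587 CPM of Ltf, 32717 of Camp, 47547 of Ngp and 4240.0 of Chil3. Their Mmp8 was at 726 CPM, against 1325 CPM with the members left out, and Mmp8 was then highest in mature neutrophils. With doublets left out myeloid progenitors had 2094 CPM of Elane. Thinned to 500 UMIs, 0.0674% of immature neutrophils held both kinds. Scaling without TMM shifted the median gene by 0.104 in myeloid and 0.156 in neutrophil progenitors and by 0.104 in mature neutrophils. Depth left 3 members untested in summed and in classical monocytes and in mature neutrophils, 4 in immature neutrophils and 6 in nonclassical monocytes.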

Other observations

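A cluster of 2478 myeloid cells, 39 of them from controls, best matched classical monocytes but was not named. Its top genes included Nos2, Saa3, Ccl5 and Cxcl9. In the 3 mice with at least 10 such cells, control 2 and anemic mice 2 and 3, Chil3 was at 17.3, 61.5 and 93.2 CPM. Over these mice of both groups the cluster had 31.2 ± 5.02 CPM of Mmp8, 20.7 ± 11.5 CPM of Ngp and 14.0 ± 4.67 CPM of Prtn3.

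Outside the monocyte and neutrophil lineages, Chil3 was at 9.70 ± 6.12 CPM in macrophage-like cells, below the 28.1 ± 18.3 CPM of B-like cells. It was at 21.0 ± 14.4 CPM in erythroid-like and 21.8 ± 15.6 CPM in hepatocyte-like cells. In basophil- or mast-like cells (767 cells) Chil3 was at 360 ± 364 CPM and Ngp at 4398 ± 3837 CPM.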
